A study of Homo sapiens with 6 samples.

Results

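The integrins and laminins are the genes of the count table that code for an integrin alpha or beta subunit or for a laminin alpha, beta or gamma chain. They were found by name, as the protein-coding genes whose symbol is ITGA or ITGB followed by a subunit, or LAMA, LAMB or LAMC followed by a digit, without the binding proteins ITGB1BP1, ITGB1BP2 and ITGB3BP and without ITGBL1. The rule uses names and no measured value. However, the members and the gene lists used below were chosen with earlier results of these data known. This gave 38 of the 58825 genes in the table, of which 26 were integrins and 12 were laminins. RNA was measured by RNA-seq in cells labelled SKOV3, a human ovarian adenocarcinoma line. There were 3 libraries of cells given a negative control siRNA (NC) and 3 libraries of cells given an siRNA against EIF5A2 (si-EIF5A2, called knockdown libraries here). The description of the series puts both groups at 48 h. EIF5A2 codes for an isoform of a translation factor. Both groups had been through transfection, no untransfected cells and no second cell line are among these libraries, and nothing in the labels says whether the 3 libraries of a group came from separate cultures, so p-values measure only the spread between these libraries, which may be technical.

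Integrins are receptors of the cell surface, each made of 1 alpha and 1 beta subunit, that bind the extracellular matrix or other cells and link to the actin cytoskeleton through talin and kindlin. The beta1 subunit, coded by ITGB1, pairs with the largest number of alpha subunits, and the alpha subunit sets which ligand is bound. Laminins are secreted trimers of an alpha, a beta and a gamma chain and form the first network of the basement membrane. The alpha3 and beta3 chains are part of the laminin that epithelia anchor to through hemidesmosomes, whereas the alpha5, beta1 and gamma1 chains make a widespread laminin of adult basement membranes. Both laminins are ligands of the integrins with the alpha3 or alpha6 subunit. In ovarian cancer, integrins are studied for the attachment of tumor cells to the mesothelium and its matrix.

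RefSeq promoters (GRCh38.p14, 250 bases before to 50 after the start of the gene) were at hand for 26 of the 38 genes, 33 promoters in all. The promoters of LAMA5, LAMB1, LAMC1 and ITGA5 are shown because these genes, which code for the 3 chains of one laminin and for the fibronectin receptor alpha subunit, were all downregulated after EIF5A2 knockdown. They run 5′ to 3′ on the strand of the gene, and capitals mark matches on either strand to the GC box GGGCGG or, in ITGA5 alone, to the AP-1 motif TGACTCA. LAMA5 is at chr20:62367263-62367562 on the minus strand, LAMB1 at chr7:108003112-108003411 on the minus strand, LAMC1 at chr1:183023170-183023469 on the plus strand and ITGA5 at chr12:54419217-54419516 on the minus strand.
LAMA5: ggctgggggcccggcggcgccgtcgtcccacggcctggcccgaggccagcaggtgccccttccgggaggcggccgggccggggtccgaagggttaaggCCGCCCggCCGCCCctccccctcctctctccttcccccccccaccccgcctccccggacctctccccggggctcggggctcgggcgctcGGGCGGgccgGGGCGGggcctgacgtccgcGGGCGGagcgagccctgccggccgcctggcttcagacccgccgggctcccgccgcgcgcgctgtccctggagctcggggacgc
LAMB1: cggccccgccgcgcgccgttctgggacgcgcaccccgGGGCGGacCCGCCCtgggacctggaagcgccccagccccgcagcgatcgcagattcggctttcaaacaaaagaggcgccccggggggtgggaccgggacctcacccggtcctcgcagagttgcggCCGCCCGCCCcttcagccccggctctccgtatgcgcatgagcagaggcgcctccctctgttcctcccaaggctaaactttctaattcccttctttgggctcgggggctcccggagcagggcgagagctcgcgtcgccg
LAMC1: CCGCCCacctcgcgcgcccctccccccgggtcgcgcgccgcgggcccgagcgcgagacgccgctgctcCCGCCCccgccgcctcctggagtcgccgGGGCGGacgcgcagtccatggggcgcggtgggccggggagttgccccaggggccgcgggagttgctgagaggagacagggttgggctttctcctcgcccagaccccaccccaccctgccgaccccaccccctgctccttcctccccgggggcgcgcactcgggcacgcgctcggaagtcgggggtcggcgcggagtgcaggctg
ITGA5: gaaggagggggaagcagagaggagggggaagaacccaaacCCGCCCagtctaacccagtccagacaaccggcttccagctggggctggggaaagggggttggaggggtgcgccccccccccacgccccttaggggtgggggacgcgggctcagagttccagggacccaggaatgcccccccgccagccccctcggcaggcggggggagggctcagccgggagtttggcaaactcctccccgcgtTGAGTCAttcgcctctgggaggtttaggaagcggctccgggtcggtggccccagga
The GC box was matched 5 times in LAMA5, 4 times in LAMB1 (the last pair of matches share bases), 3 times in LAMC1 and 1 time in ITGA5. Of 35116 promoters of this length, 45.0% held a GC box and 4.95% the AP-1 motif. CCAAT was found in 34.6%, TATAAA in 11.5% and the E2F motif TTTNGCGC in 1.79% of them. Among the promoters of integrin and laminin genes, 19 of 33 held a GC box, 6 CCAAT, 2 TATAAA, 3 the AP-1 motif and 0 the E2F motif. The 5 promoters of downregulated members (ITGA1, ITGA5, LAMA5, LAMB1 and LAMC1) held a GC box in 4, and none was at hand for ITGA3, ITGB2 and ITGAX. The 7 promoters of upregulated members, with more than 1 each for ITGA6, ITGAV and ITGB1, held a GC box in 3. These were those of ITGA6, which share bases, and 1 of ITGB1. Up to 3 matches were found in a promoter of ITGA6 and of ITGB1, and 4 in that of ITGA2, which was not called. No match to one motif overlapped a match to another. A match is a run of letters, and binding was not measured.

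EIF5A2 itself was measured at 2030, 2108 and 1404 counts under NC and at 141, 211 and 205 counts after knockdown, or 29.1 ± 1.15 against 3.69 ± 0.817 counts-per-million (CPM; SD, n = 3 each). Its log2 fold change was -2.98 (standard error (SE) 0.18; adjusted p = 1.6e-05 by the quasi-likelihood test of edgeR, corrected over all genes tested). The libraries held 46900204 to 74142267 estimated counts, and the low values piled up at multiples of 3.68 to 3.73 counts, as if each fragment was worth that many, so that the depth was about 12675731 to 20038451 fragments. A gene at 0 allows up to 3 fragments, which is 0.152 to 0.236 CPM depending on the library, and such limits cover counting error only. Of 8 markers of ovarian epithelial cancer 7 were tested, with a summed level of 1506 to 1673 CPM in NC and 956 to 1168 CPM in knockdown libraries, most of it KRT8, KRT18 and KRT7. KRT7, KRT8 and PAX8 were called lower after knockdown by the rule given below for the members, and their part in the results was not tested. MUC16 was at 0 in every library, EPCAM had 1.55 CPM in NC, and ERBB2, whose amplification SKOV3 is known for, had 45.9 CPM in NC and ranked 3812 of 16208 tested genes. The level of ERBB2 goes against what is known of SKOV3, and the identity of the cells was not tested further.

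Integrin and laminin genes were among both the downregulated and the upregulated genes after EIF5A2 knockdown. A gene was called differentially expressed at an adjusted p below 0.05 and a fold change above 1.5. Of the 38 genes, 25 had enough counts to be tested. Of these, 8 were downregulated, 4 were upregulated and 13 were not called. The called share was 48.0% of the tested members, against 24.6% of all 16208 genes tested (13.6% downregulated and 11.1% upregulated). The downregulated genes were ITGB2, LAMA5, ITGA3, LAMC1, LAMB1, ITGA5, ITGAX and ITGA1, and the upregulated genes were LAMA2, ITGAV, ITGA6 and ITGB1. The groups did not overlap in CPM for 18 of the 25 genes, or 72.0%, against 51.2% of all genes tested. The median log2 fold change was 0.079 for the 25 members and -0.010 for all genes. It was -0.49 for the 17 tested integrins and 0.16 for the 8 tested laminins. In RNA from whole cultures, fewer cells of a type and less RNA per cell cannot be told apart.

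**Figure D1:**
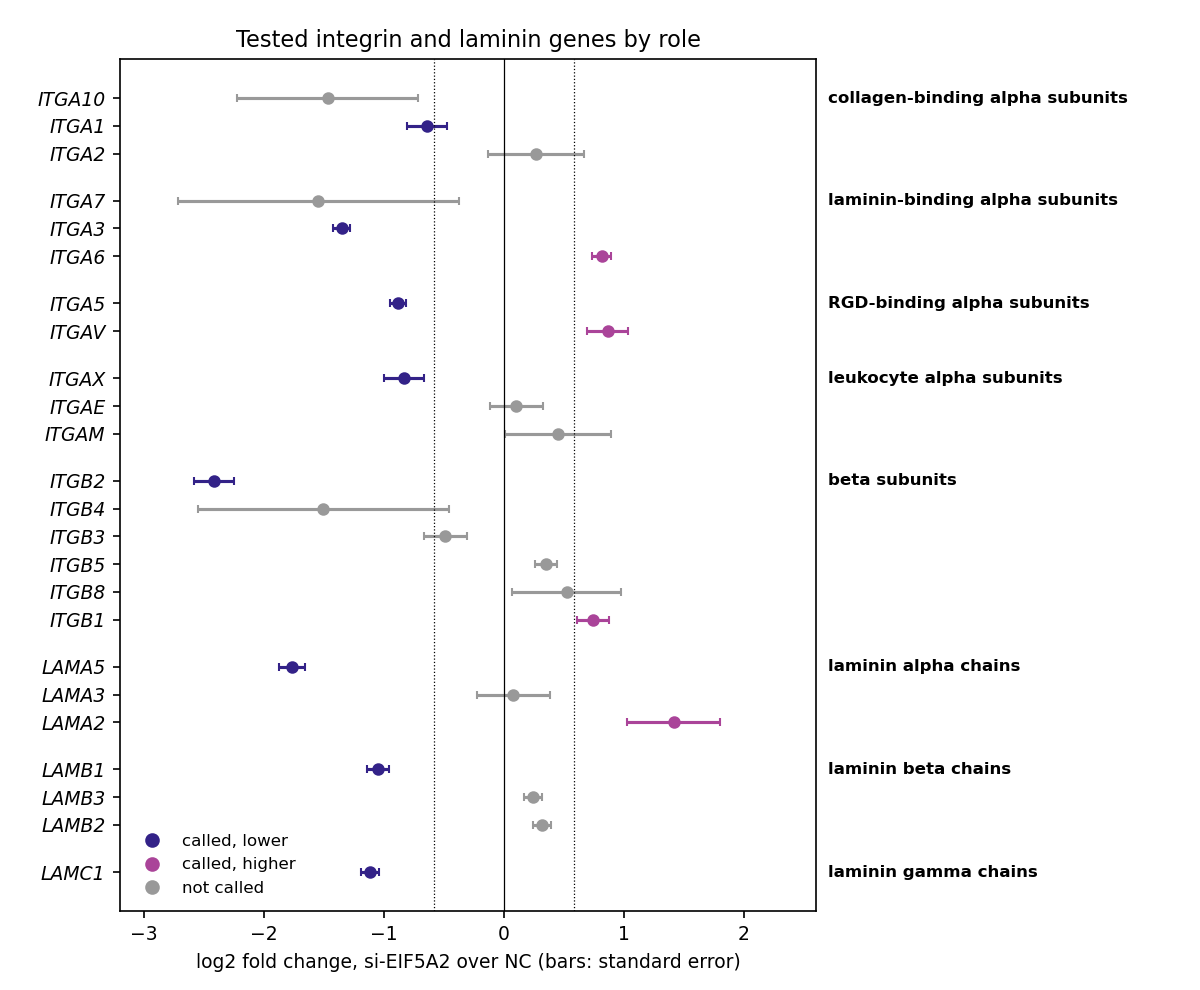
Log2 fold change of si-EIF5A2 over NC (horizontal axis) for tested integrin and laminin genes, grouped by role, with bars for the standard error of edgeR's fit (3 libraries in each group) and dotted lines at a fold change of 1.5. The 8 downregulated genes lie between -2.41 (ITGB2) and -0.64 (ITGA1), and the 4 upregulated genes between 0.74 (ITGB1) and 1.41 (LAMA2).

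Other thresholds gave other counts. At an unadjusted p below 0.05 and a change above 2-fold, which is the threshold of the study's methods, 5 members were lower (ITGA3, ITGB2, LAMA5, LAMB1 and LAMC1) and 1 was higher (LAMA2), against 14.6% of all genes in either direction. At an adjusted p below 0.05 with no limit on the fold change, 8 were lower and 8 higher, against 36.9% of all genes. Among the members added by the second threshold were ITGB5, LAMB2 and LAMB3, all higher in knockdown libraries.

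The laminin-binding alpha subunits went both ways. ITGA3, which pairs with beta1 and binds laminins (ENSG00000005884, chromosome 17 from 50055968 to 50090481, GRCh38), was the most abundant integrin subunit per length of transcript in NC, and ITGB1 was in knockdown libraries. It had 2338, 2243 and 2106 CPM in NC against 861, 860 and 895 CPM after knockdown. Every knockdown library lay below every NC library, and the mean was 39.1% of that in NC. The log2 fold change was -1.35 (SE 0.07; edgeR, adjusted p = 8.31e-06), between -1.40 and -1.32 when single libraries were dropped. ITGA6, the other epithelial laminin-binding subunit, which pairs with beta1 or beta4 (ENSG00000091409, chromosome 2 from 172427354 to 172506282), rose. It had 131, 140 and 153 CPM in NC against 254, 238 and 255 CPM after knockdown, with no overlap. ITGA6 thus changed by 0.81 on the log2 scale (SE 0.08; edgeR, adjusted p = 1.62e-04). ITGA7, the laminin-binding subunit known from muscle, was near the limit of detection with 0.329, 0.141 and 0.702 CPM in NC against 0, 0.307 and 0.0834 CPM after knockdown, and it was not called.

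Of the subunits that bind the RGD sequence of fibronectin or vitronectin, 2 of 4 were tested, and they also moved in opposite directions. ITGA5, the alpha subunit of the classical fibronectin receptor (ENSG00000161638, chromosome 12 from 54395261 to 54419460), had 507, 502 and 486 CPM in NC against 260, 269 and 281 CPM after knockdown. The 3 knockdown libraries lay far below the NC libraries, at 54.2% of the NC mean. The log2 fold change was -0.88 (SE 0.07; edgeR, adjusted p = 4.19e-05). ITGAV, which pairs with beta1, beta3, beta5, beta6 or beta8 (ENSG00000138448, chromosome 2 from 186590065 to 186680901), had 31.3, 38.2 and 45.5 CPM in NC against 82.4, 68.2 and 58.7 CPM after knockdown. The groups did not overlap, but relative to their means both were spread more widely than for ITGA5. For ITGAV the log2 fold change was 0.86 (SE 0.17; edgeR, adjusted p = 0.00592), and it stayed between 0.72 and 0.999 when single libraries were dropped. ITGA2B, the platelet subunit, was at 4 counts or fewer in every library, and ITGA8 was at 0 in all.

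Among the collagen-binding alpha subunits, 3 of 4 were tested and 1 was called. ITGA1 (ENSG00000213949, chromosome 5 from 52787896 to 52959210) had 5.67, 5.21 and 6.47 CPM in NC against 3.36, 3.77 and 3.98 CPM after knockdown. The knockdown libraries were all lower, and the log2 fold change was -0.64 (SE 0.17; edgeR, adjusted p = 0.0186). This call was lost without NC replicate 3 (-0.56, adjusted p = 0.0607) and without si-EIF5A2 replicate 1 (-0.58, adjusted p = 0.0556; edgeR). PELO, a ribosome rescue factor whose exons overlap ITGA1 on the same strand, had 67.1 ± 2.43 CPM in NC and 95.3 ± 3.96 CPM in knockdown libraries (SD, n = 3 each), so the split of fragments between them is uncertain.

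ITGA2, the collagen receptor subunit of epithelia and platelets, had 29.9, 39.0 and 82.9 CPM in NC against 66.8, 56.0 and 59.5 CPM after knockdown. NC replicate 3 was above every knockdown library, whereas the other NC libraries were below them. ITGA2 was not called (log2 fold change 0.27, SE 0.40; edgeR, adjusted p = 0.661). Without NC replicate 3 it was upregulated at 0.81 (adjusted p = 0.00657, edgeR), and without NC replicate 1 the value was -0.0042. ITGA10, known from cartilage, ranged from 0.268 to 1.16 CPM in NC and from 0.153 to 0.521 CPM in knockdown libraries and was not called. ITGA11 was not tested, with 10, 24 and 15 counts in NC and 0, 4 and 0 counts in knockdown libraries, mostly at or near the floor of about 11.1 counts that 3 fragments give. When si-EIF5A2 replicate 2 was left out it passed the filter through the NC libraries alone and counted as lower, a direction which the filter had set.

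ITGAX, the alpha subunit of a leukocyte receptor that pairs with beta2, was low but lower still after knockdown. Its level (ENSG00000140678, chromosome 16 from 31355134 to 31382997) was 7.14, 5.83 and 6.85 CPM in NC against 4.01, 3.81 and 3.29 CPM after knockdown. The groups did not overlap, and the log2 fold change was -0.83 (SE 0.17; edgeR, adjusted p = 0.00551). ITGAE, which pairs with beta7 and binds E-cadherin, ranged from 8.40 to 12.5 CPM in NC and from 8.18 to 13.1 CPM in knockdown libraries. ITGAM ranged from 0.493 to 1.0 CPM in NC and from 0.766 to 1.13 CPM in knockdown libraries, and neither was called. ITGAD reached 16 counts at most, and ITGAL was at 0 in every library. Of the alpha4 and alpha9 subunits, ITGA4 was at 0 in every library, and ITGA9 was at 0 in NC and at 4 counts in each knockdown library, which is under the floor.

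Of the 8 beta subunits 6 were tested, of which 1 was upregulated and 1 downregulated. ITGB1, the common beta subunit (ENSG00000150093, chromosome 10 from 32900319 to 33005792) had 738, 962 and 1074 CPM in NC against 1627, 1456 and 1548 CPM after knockdown. The lowest knockdown library was above the highest NC library, and the log2 fold change was 0.74 (SE 0.13; edgeR, adjusted p = 0.00384). When single libraries were dropped it lay between 0.60 and 0.85. ITGB1-DT, a noncoding gene that overlaps ITGB1 on the opposite strand, had 533, 554 and 294 counts in NC and 1346, 1651 and 1389 counts in knockdown libraries. The pseudogene ITGB1P1 had 48.9 ± 6.07 CPM in NC and 74.6 ± 13.4 CPM in knockdown libraries (SD, n = 3 each). The counting is not known to have used strand, so reads of ITGB1 and ITGB1-DT cannot be told apart where they overlap, and fragments of the pseudogene may have been shared with it.

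ITGB2, the beta subunit shared by the leukocyte integrins, had the largest change among the members (ENSG00000160255, chromosome 21 from 44885953 to 44931989). Its level was 18.7, 18.2 and 18.0 CPM in NC against 4.22, 2.95 and 3.13 CPM after knockdown, so that knockdown libraries held 18.8% of the NC mean. The log2 fold change was -2.41 (SE 0.17; edgeR, adjusted p = 2.95e-05), between -2.60 and -2.31 when single libraries were dropped. Its antisense gene ITGB2-AS1 had 259, 227 and 226 counts in NC and 0, 36 and 23 counts in knockdown libraries, and the reads of the pair cannot be told apart where they overlap. Of 6 leukocyte markers, ITGB2 was the one that was tested. The defining markers PTPRC and CD3E were at 0 in every library, CD53 had 0.0753 CPM and CD14 0.0371 CPM in NC, and both were at 0 in knockdown libraries. The summed level of the leukocyte list, 18.0 to 18.8 CPM in NC and 2.95 to 4.22 CPM in knockdown libraries, was therefore nearly all ITGB2.

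ITGB5, a partner of the alphaV subunit, had 94.8, 109 and 106 CPM in NC against 133, 142 and 121 CPM after knockdown. Its groups did not overlap, but the fold change of 1.27 was under the limit (log2 fold change 0.35; edgeR, adjusted p = 0.0181). ITGB3, another partner of alphaV, had 5.23, 6.14 and 4.83 CPM in NC against 3.54, 4.43 and 3.59 CPM after knockdown, and it missed the threshold at a log2 fold change of -0.49 (edgeR, adjusted p = 0.0689). ITGB4, the hemidesmosome partner of alpha6, was close to the floor with 0.384, 0.988 and 0.404 CPM in NC against 0.313, 0 and 0.313 CPM after knockdown and was not called. ITGB8 ranged from 0.423 to 0.723 CPM in NC and from 0.605 to 0.939 CPM in knockdown libraries, also without a call. ITGB6 had 15 counts in si-EIF5A2 replicate 1 and 0 in every other library, and ITGB7 reached 4 counts.

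**Figure D2:**
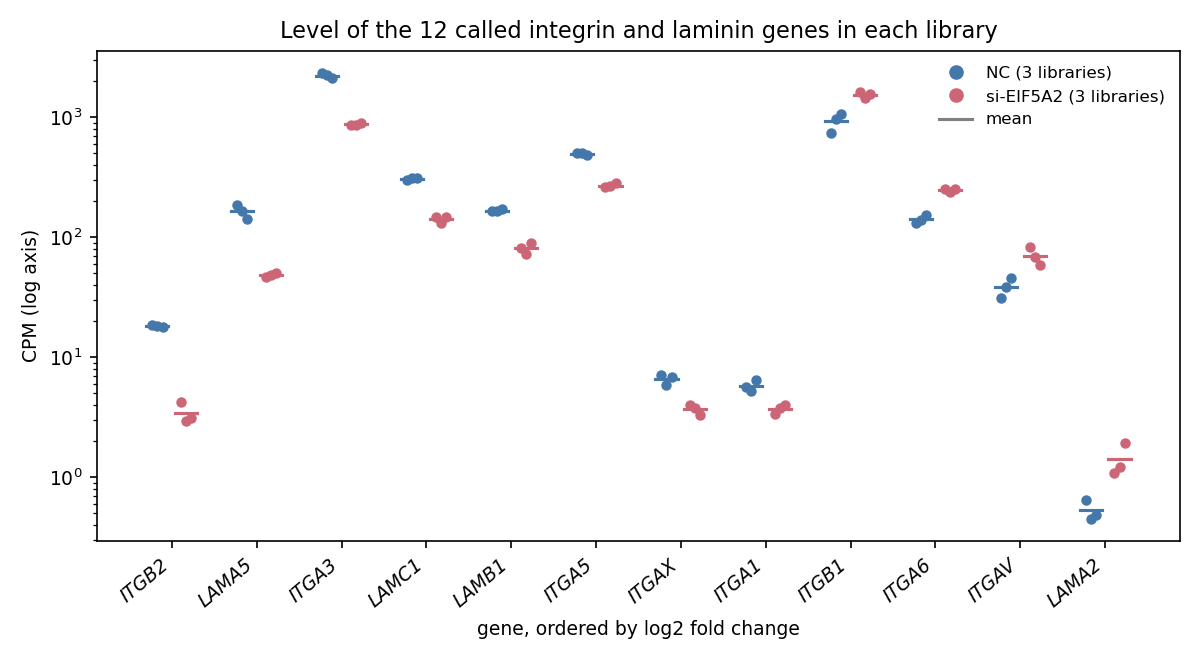
CPM (vertical log axis) of the 12 called integrin and laminin genes in each of the 3 NC and 3 knockdown libraries (points), with the group mean (line), ordered by log2 fold change. In each of the 12 genes the libraries of one group lie wholly above those of the other, and NC means span from 0.528 CPM (LAMA2) to 2229 CPM (ITGA3).

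The 3 chains of the widespread laminin fell together. LAMA5, its alpha chain (ENSG00000130702, chromosome 20 from 62307955 to 62367312), had 185, 167 and 143 CPM in NC against 46.5, 48.7 and 50.3 CPM after knockdown. NC was spread over 20.9 CPM (SD) and si-EIF5A2 over 1.94 CPM, yet the groups were far apart. The log2 fold change was -1.77 (SE 0.11; edgeR, adjusted p = 1.52e-05), and the mean was 29.4% of that in NC. LAMB1, its beta chain (ENSG00000091136, chromosome 7 from 107923799 to 108003255), had 164, 164 and 173 CPM in NC against 81.0, 72.2 and 89.4 CPM after knockdown. Its log2 fold change was -1.05 (SE 0.09; edgeR, adjusted p = 9.48e-05). LAMC1, its gamma chain (ENSG00000135862, chromosome 1 from 183023460 to 183145592), had 303, 309 and 312 CPM in NC against 147, 132 and 147 CPM after knockdown. For LAMC1 the log2 fold change was -1.12 (SE 0.07; edgeR, adjusted p = 2.3e-05). NC and knockdown libraries did not overlap for any of these chains, whose promoters are printed above. LAMA5 shares exon bases with ADRM1, and LAMB1 with DLD, on the opposite strand. The counting is not known to have used strand, so the reads of these pairs cannot be told apart where they overlap.

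The beta3 chain of the epithelial laminin was abundant and was not called. LAMB3 had 1742, 1530 and 1562 CPM in NC against 1920, 1930 and 1867 CPM after knockdown, a log2 fold change of 0.24 (edgeR, adjusted p = 0.0299) that is under the limit on the fold. Every knockdown library was above every NC library. LAMA3, the alpha chain of the same trimer, had 2.44, 1.76 and 1.43 CPM in NC against 2.43, 1.53 and 2.0 CPM after knockdown, and the groups overlapped. Per length of transcript, LAMA3 had 0.176 ± 0.0484 CPM per kb in NC, against 374 ± 26.5 for LAMB3 (SD, n = 3). The measure here is RNA, and no trimer was measured.

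Of the other chains, LAMB2, a beta chain that can replace beta1, had 86.6, 79.9 and 80.1 CPM in NC against 101, 98.8 and 107 CPM after knockdown. Its log2 fold change of 0.32 (edgeR, adjusted p = 0.0118) was under the limit on the fold. LAMA2, the alpha chain known from muscle (ENSG00000196569, chromosome 6 from 128883141 to 129516569), was upregulated at a low level. It had 0.644, 0.452 and 0.489 CPM in NC against 1.08, 1.23 and 1.94 CPM after knockdown, with no overlap and with si-EIF5A2 replicate 3 the highest. The log2 fold change of LAMA2 was 1.41 (SE 0.39; edgeR, adjusted p = 0.0223). The call was lost without NC replicate 2 (1.31, adjusted p = 0.0704), without NC replicate 3 (1.35, adjusted p = 0.0608) and without si-EIF5A2 replicate 3 (1.11, adjusted p = 0.0943; edgeR). LAMA4 reached 41 counts, LAMC3 12 counts and LAMA1 4 counts, LAMB4 was at 0 in every library, and none of these was tested.

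Because the members differ in length, their make-up was compared as CPM per kb of the principal transcript in GENCODE 29. Among the genes named here, the order of the levels in NC began with ITGA3 (456 ± 23.9 CPM per kb), LAMB3 (374 ± 26.5), ITGB1 (244 ± 45.3) and ITGA5 (112 ± 2.55; SD, n = 3). In knockdown libraries it began with LAMB3 (443 ± 7.82), ITGB1 (408 ± 22.6), ITGA3 (178 ± 4.08) and ITGA5 (60.8 ± 2.31). Lower in the NC order, ITGA6 (25.2 ± 1.90) and ITGB5 (23.7 ± 1.76) did not differ beyond their spread, nor did LAMB2 (14.5 ± 0.668) and LAMA5 (14.4 ± 1.83), nor ITGA2 (6.43 ± 3.60), ITGB2 (5.76 ± 0.122) and ITGAV (5.45 ± 1.02).

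ITGA3 made up 76.0%, 74.9% and 73.1% of the summed level of the alpha subunits per kb under NC, but 58.0%, 58.5% and 58.7% after knockdown. ITGA6 went from 4.13 ± 0.450% to 14.5 ± 0.401% (SD, n = 3 each), ITGAV from 0.898 ± 0.197% to 3.25 ± 0.593% and ITGA2 from 1.07 ± 0.633% to 2.53 ± 0.233%, without overlap. The summed level that these are shares of was itself lower after knockdown (610 ± 20.0 against 305 ± 5.75 CPM per kb), and the level of ITGA2 overlapped between the groups and was not called, so its share does not show a change of its own level. ITGA5 had a share of 18.4 ± 0.202% in NC and 19.9 ± 0.533% in knockdown libraries, a difference that turned round (20.0% and 19.6%) when levels were divided by the length of all exons merged, an alternative chosen after seeing the data. With that length the share of ITGA3 went from 69.1% to 49.0% and that of ITGA6 from 6.59% to 21.0%. Each of these shares, other than that of ITGA5 with merged exons (p = 0.60), had an exact permutation p of 0.10 (two-sided), which is the smallest that 3 against 3 libraries allow.

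The alpha subunits that can pair with beta1 (ITGA1 to ITGA11 and ITGAV) summed to 606 ± 19.9 CPM per kb in NC and 301 ± 6.02 in knockdown libraries, whereas ITGB1 had 244 ± 45.3 and 408 ± 22.6 (SD, n = 3 each). The ratio of the summed alpha level to the ITGB1 level was 3.21, 2.39 and 2.06 in NC and 0.699, 0.770 and 0.753 in knockdown libraries. It was above 1 in every NC library and below 1 in every knockdown library (2.55 ± 0.589 against 0.740 ± 0.0371, SD, n = 3; exact permutation p = 0.10, two-sided). With merged exons the ratio was 2.18 ± 0.483 and 0.698 ± 0.0310. Of the alpha subunits in the sum, ITGA3 (456 to 178 CPM per kb) and ITGA5 (112 to 60.8) were lower after knockdown and ITGA6 (25.2 to 44.2) was higher.

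Among the beta subunits ITGB1 had 88.6 ± 1.51% of the summed level per kb in NC and 92.6 ± 0.790% in knockdown libraries, while ITGB2 went from 2.14 ± 0.436% to 0.244 ± 0.0373% (SD, n = 3 each). The ranges of ITGB5 (8.70 ± 0.985% and 6.87 ± 0.773%) overlapped. LAMA5 was nearly all of the laminin alpha chain RNA, with 98.3 ± 0.0955% in NC and 91.4 ± 1.92% in knockdown libraries. LAMB1 went from 7.0 ± 0.541% to 2.98 ± 0.351% of the beta chains, while LAMB3 made up 93.2 ± 0.541% in knockdown libraries. All of these except ITGB5 had non-overlapping groups and the smallest exact permutation p of 0.10. The summed level of all laminin chains was 640 ± 19.5 CPM per kb in NC and 702 ± 7.53 in knockdown libraries.

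**Figure D3:**
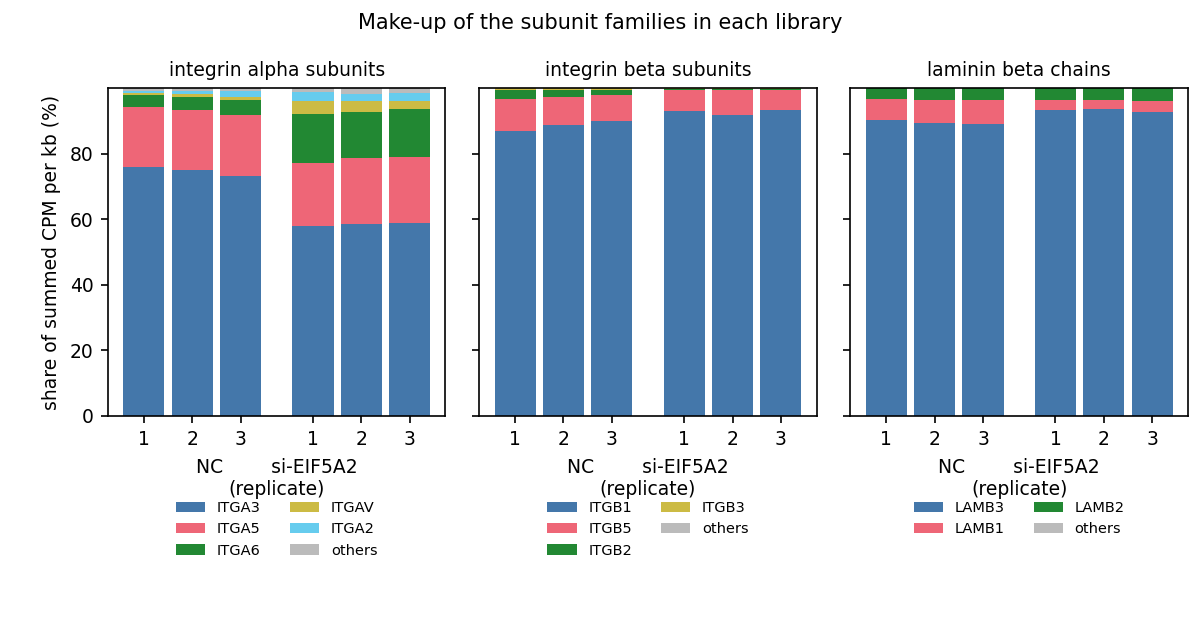
Share (vertical axis, %) of each gene in the summed CPM per kb of the integrin alpha subunits, integrin beta subunits and laminin beta chains, in each NC and knockdown library (1 stacked bar for each replicate). The share of ITGA3 is 73.1% to 76.0% in NC and 58.0% to 58.7% in knockdown libraries, and that of LAMB3 is 89.1% to 90.2% and 92.6% to 93.7%.

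The genes around these receptors were described with 7 lists of 152 genes, of which 122 were tested, 30 were downregulated and 13 upregulated (35.2% called, against 24.6% of all genes). The focal adhesion and integrin signaling proteins, which couple the integrin tail to actin, were mostly lower among those called. Of 41 tested, 14 were downregulated and 1 was upregulated (36.6%), with a median log2 fold change of -0.14 against -0.010 for all genes. The largest fitted falls were those of TNS4, TNS1, TLN2 and FERMT3, of which TNS4 was near the floor. TNS1, a tensin that binds the beta tail and actin, went from 44.3 ± 2.17 to 4.27 ± 0.802 CPM (SD, n = 3 each). TLN2, a talin, went from 22.9 ± 1.68 to 4.89 ± 0.787 CPM, and FERMT3, the kindlin of blood cells, from 9.75 ± 0.624 to 2.5 ± 0.429 CPM. TNS4 had 93, 30 and 25 counts in NC against 0, 0 and 8 counts after knockdown, so it passed the filter through the NC libraries alone and the size of its fall rests on near-zero counts, and its adjusted p of 0.0495 (edgeR's quasi-likelihood test) was just inside the threshold. The upregulated gene was FERMT2, the widespread kindlin, with 80.1 ± 17.3 CPM in NC and 132 ± 24.8 CPM in knockdown libraries (log2 fold change 0.72; edgeR, adjusted p = 0.0296).

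The called share of the 18 tested regulators of integrin activity and trafficking was 22.2%, close to the 24.6% of all genes tested. Their median was -0.16, and 4 were downregulated and 0 upregulated. These were DAB2, an adaptor for integrin endocytosis, which went from 40.6 ± 2.47 to 11.4 ± 1.04 CPM, ITGB3BP (10.9 ± 1.75 to 4.14 ± 0.190 CPM), DOK1, an adaptor that binds beta tails (21.4 ± 5.89 to 10.6 ± 0.907 CPM), and RAP1A, a small GTPase of inside-out activation (49.4 ± 6.08 to 32.9 ± 2.32 CPM; SD, n = 3 each). Of the 11 tested tetraspanins and other lateral partners, EMP2 was downregulated (9.15 ± 0.234 to 3.74 ± 0.465 CPM) and none was upregulated. The called share was 9.09%, against 24.6% of all genes tested.

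The ligands went both ways. Of the 23 tested integrin ligands of the extracellular matrix other than laminins, 5 were downregulated and 6 upregulated. The called share was 47.8%, against 24.6% of all genes tested, and the median was -0.083. The list also holds ligands on other cells, such as ICAM1. FN1, the fibronectin bound by ITGA5 and ITGAV, rose from 143, 147 and 132 CPM in NC to 564, 545 and 654 CPM in knockdown libraries (log2 fold change 2.06, SE 0.09; edgeR, adjusted p = 6.5e-06). So FN1 rose while ITGA5 fell and ITGAV rose in the same libraries. ICAM1, a ligand of beta2 integrins, went from 106 ± 11.7 to 363 ± 4.96 CPM, FBN1, a microfibril protein, from 20.7 ± 0.615 to 57.3 ± 10.6 CPM, and LTBP1, a binding protein of latent TGF-beta, from 2.69 ± 0.229 to 4.65 ± 0.316 CPM (SD, n = 3 each). CCN3 (23.6 ± 2.52 to 10.9 ± 0.722 CPM), FBLN1 (52.9 ± 6.21 to 25.3 ± 2.22 CPM) and CCN2 (288 ± 13.9 to 153 ± 2.30 CPM) fell. TNXB had 0.507, 0.819 and 0.255 CPM in NC and 0 in each knockdown library and counts among the 5 called lower. However, TNXB passed the filter through the NC libraries alone, so that the filter had set its direction. It is also near the floor and shares exons on the same strand with ATF6B.

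Among the basement membrane components other than laminins, 3 of 19 tested were downregulated and 5 upregulated (median 0.16). The called share was 42.1%, against 24.6% of all genes tested. TINAGL1, a matricellular protein of the basement membrane, had 80.8, 71.2 and 64.9 CPM in NC against 4.30, 4.52 and 5.17 CPM after knockdown, with a log2 fold change of -3.95 (SE 0.13; edgeR, adjusted p = 4.44e-06). AGRN, which links laminin to dystroglycan, went from 194 ± 19.8 to 113 ± 8.12 CPM, and FRAS1 from 3.99 ± 0.505 to 1.79 ± 0.345 CPM. SPARC, a collagen-binding matricellular protein, rose from 625 ± 5.40 to 1447 ± 9.43 CPM and COL4A1, a collagen IV chain, from 101 ± 15.1 to 189 ± 5.76 CPM. The netrins NTN1 (0.311 ± 0.203 to 1.47 ± 0.477 CPM) and NTN4 (3.61 ± 0.401 to 6.59 ± 0.813 CPM; SD, n = 3 each) also rose. However, NTN1 had 35, 26 and 4 counts in NC against 47, 88 and 86 counts after knockdown. It passed the filter only with the help of the knockdown libraries, where it was higher. NC replicate 3 was under the floor, so the size of the rise of NTN1 is uncertain.

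Of the 9 tested laminin receptors other than integrins, 33.3% were called, against 24.6% of all genes tested (median 0.015). BCAM, a receptor for the laminin alpha5 chain, fell from 13 ± 1.43 to 4.73 ± 0.513 CPM and SDC3 from 87.2 ± 2.30 to 54.3 ± 0.894 CPM. SDC4, the syndecan of focal adhesions, rose from 150 ± 5.61 to 546 ± 19.8 CPM (SD, n = 3 each). BCAM and LAMA5, which bind each other, were both lower after knockdown. Of the 4 tested hemidesmosome partners, COL17A1, which binds the alpha6 beta4 integrin, fell from 22.2 ± 2.10 to 9.62 ± 0.984 CPM. The other 3 were not called (median 0.32), and the called share of 25% was close to the 24.6% of all genes tested.

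**Figure D4:**
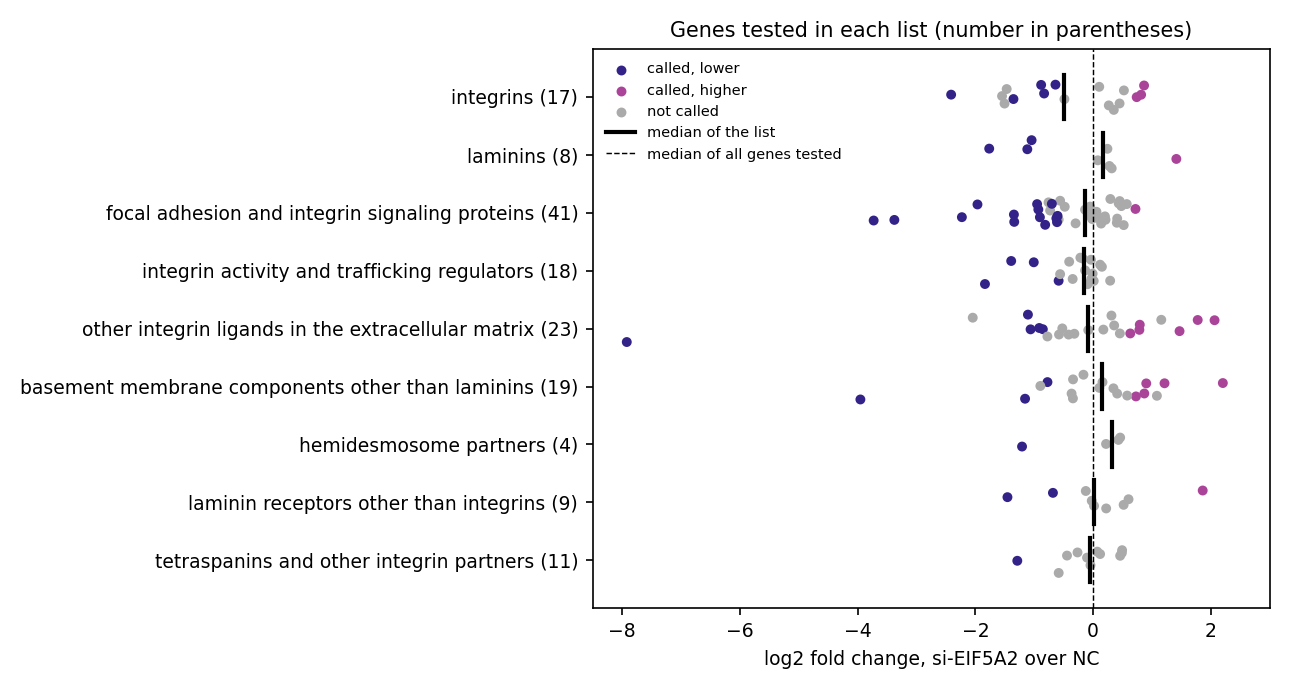
Log2 fold change of si-EIF5A2 over NC (horizontal axis) of each tested integrin, laminin and gene of the 7 surrounding lists (1 point a gene), with the median of each list as a bar and that of all 16208 genes (-0.010) as a dashed line. The list medians lie between -0.49 (integrins) and 0.32 (hemidesmosome partners). The point farthest to the left is TNXB, which passed the filter through the NC libraries alone and was at 0 in every knockdown library.

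Markers of other cell types were measured in the same libraries. The summed level of 5 endothelial markers was 28.2 to 32.4 CPM in NC and 0.958 to 1.88 CPM in knockdown libraries, most of it CDH5 (28.3 against 0.833 CPM), which was called lower. PECAM1 had 1.87 CPM in NC and 0.318 CPM in knockdown libraries without overlap and was not called (edgeR, adjusted p = 0.0941), and the group means of KDR, VWF and TEK were at 0.235 CPM or lower. Over 6 fibroblast markers the sum was 1.17 to 1.52 CPM in NC and 0.861 to 2.75 CPM in knockdown libraries, with DCN, LUM and COL1A2 at 0 in NC. Within this list PDGFRB was called lower (0.601 against 0.0278 CPM, near the floor, edgeR, adjusted p = 0.0222). However, PDGFRB passed the filter through the NC libraries alone, so that the filter had set its direction. COL1A1 had 0.598 CPM in NC and 1.30 CPM in knockdown libraries and was not called. For 5 platelet and megakaryocyte markers the sum was 0 to 0.425 CPM in NC and 0.153 to 0.584 CPM in knockdown libraries, with PF4 and GP9 at 0 in every library. The part of these markers in the integrin and laminin results was not tested.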

How the data were processed

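RNA-seq libraries of 3 NC and 3 si-EIF5A2 samples were used, grouped by their labels. According to the methods, mRNA was sequenced as paired ends on an Illumina NovaSeq, and StringTie and ballgown estimated expression. The authors deposited estimated counts (expected counts) per gene, already whole numbers and not normalized. The aligner and genome build are not given in the sources used here: the submitters' processing notes name Bowtie 0.12.2 and the mouse builds mm8 and mm9, which do not suit human gene identifiers. Since StringTie shares fragments between overlapping transcripts, genes with shared exons are less certain, and strand is not stated.

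Of 58825 identifiers, 58552 were found in GENCODE 29 (GRCh38), which gave symbols, positions and lengths. Genes with low counts were removed with edgeR's filterByExpr, which left 16208. Libraries were scaled by TMM (factors 0.985 to 1.01), and condition was tested with edgeR 4.0.16 (robust quasi-likelihood fit, all 6 libraries, R 4.3.3) with Benjamini-Hochberg adjustment over all genes tested. The standard error was taken as the size of the log2 fold change over the root of its F statistic. Shares and ratios were compared with exact permutation tests. CPM used the total count of the tested genes in a library, scaled by its TMM factor. The pipeline was tested on simulated data in which 194 of 15752 tested genes were changed. There 58.8% of the changed genes were recovered (76.4% of those changed 4-fold). Of the calls made there, 9.52% were false. The changed share was far smaller than the 24.6% called in the data, so these rates need not hold for the data. DESeq2 1.42.0, other scalings, filters and thresholds, a replicate block and leaving out each library were the alternatives. The members and gene lists were chosen with earlier results of these data known. Every member was counted, 1 tested member that was not called is not reported here by name, and of each surrounding list at most the 4 largest rises and the 4 largest falls among called genes were named. Motifs were searched on both strands of RefSeq promoters. The deposited table holds 0 columns of no sample.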

Additional observations from a re-analysis of the deposited data

How the results depend on the processing

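The members called (8 lower, 4 higher) were the same genes with DESeq2, RLE, upper-quartile or library-size scaling, no filter, a minimum of 10 counts in every library, counts divided by the step of 1 fragment and counts summed per symbol. At the threshold of the methods (fold 2, unadjusted p) 2370 genes were called over the whole table, or 14.6% of those tested. The counts were 5 lower and 1 higher of 25 tested members, 6 of 41 in the focal adhesion list, 6 of 23 other matrix ligands and 4 of 19 other basement membrane components. With no limit on the fold change 36.9% of all genes tested were called. The counts were then 8 lower and 8 higher of 25 members. In either direction they were 25 of 41 in the focal adhesion list, 7 of 18 activity and trafficking regulators, 4 of 11 tetraspanins and partners and 2 of 4 hemidesmosome partners. Those of the regulators and of the tetraspanins were close to the share of all genes. Leaving out each library in turn gave 7 to 9 lower (the 9 includes ITGA11, which was near the floor) and 3 to 4 higher members and 3638 to 3907 genes over the whole table. Values that changed sign, each for a gene that was not called, were ITGA2 (-0.0042 to 0.81), ITGAE (-0.078 to 0.30) and LAMA3 (-0.097 to 0.31). The cause was not tested.

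Replicate numbers share only a number: deviations from the group means correlated at -0.0244, 0.0052 and -0.0027 between same-numbered libraries, and 0 of 3 numbers matched their own best. With the replicate block 8 members were lower and 3 higher. LAMA2 lost its call (log2 fold change 1.38, adjusted p = 0.0627, edgeR), and no other member did. For ITGB4 and ITGA7, near the floor, no difference was detectable at this depth. The 13 untested genes held too few counts for the filter, and ITGA4, ITGA8, ITGAL and LAMB4 were at 0 in all 6 libraries.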
